A study of Mus musculus with 6 samples.

Results

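The 46 ribosome biogenesis factors examined here are a list of nucleolar proteins and RNA polymerase I components chosen by name from knowledge of their function, and every one of them was found among the 17348 genes of the expression table. All 46 passed the filter on low counts that left 13340 genes for testing. The list was divided into 8 roles: transcription of ribosomal DNA (Polr1a, Polr1b, Ubtf, Tcof1, Mybbp1a), nucleolar phosphoproteins (Ncl, Npm1, Nolc1), box C/D snoRNP proteins (Fbl, Nop56, Nop58), box H/ACA snoRNP proteins (Dkc1, Nhp2, Gar1, Nop10), the UTP-A subcomplex (Heatr1, Utp4, Utp15, Wdr43, Wdr75), other small subunit processome factors (Utp20, Nop14, Noc4l, Rrp9, Emg1, Nat10, Nop9), late 40S assembly (Rrp12, Bysl, Ltv1, Nob1) and 60S assembly (Bop1, Pes1, Wdr12, Wdr74, Rrp1b, Rrs1, Noc2l, Noc3l, Ebna1bp2, Gnl2, Gnl3, Gtpbp4, Nop2, Nop16, Sbds). The question was whether the transcripts of these factors differ between E13.5 cortex with and without Ybx1.

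Ribosomes are assembled mainly in the nucleolus. RNA polymerase I transcribes one long precursor of the ribosomal RNAs, small nucleolar ribonucleoproteins (snoRNPs) guide its methylation and pseudouridylation, and a large particle called the small subunit processome folds and cuts the part that becomes the 40S subunit. A separate series of particles matures the 60S subunit, and the last factors of both series are removed in the cytoplasm. Dividing neural progenitors are known for a high demand for new ribosomes, and ribosome biogenesis genes as a class are known targets of the MYC transcription factors.

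RNA was sequenced from dissected cortex of mouse embryos at E13.5, the onset of neurogenesis, with 3 libraries per genotype. The cKO embryos carried Nestin-Cre and 2 floxed Ybx1 alleles (Nestin-Cre, Ybx1 fl/fl), on a C57BL/6J-derived line, so a block of coding exons of Ybx1, an RNA-binding protein that reads m5C, was deleted where Nestin-Cre is active, in neural progenitors and the cells they give rise to. The comparison group is labelled WT and consisted of littermates. The study describes its controls elsewhere as Ybx1 fl/fl without Cre, and whether these WT embryos carried floxed alleles is not given in the sources used here. If they lacked Cre, the presence of Cre and the loss of Ybx1 cannot be told apart. Dissected cortex also holds vessels, blood cells, microglia and adhering meninges, which lie outside the neural lineage that Nestin-Cre is used to target. Nothing says whether a library came from 1 embryo or several, so p-values measure the spread between these libraries.

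The libraries held between 15907486 and 16282921 estimated counts, and the 46 transcripts together took between 0.436% and 0.509% of them. Each member had at least 290 counts in every library. All 8 radial glia markers and all 8 neuron markers of the cortex were detected in every library. Values per library are given as CPM, the count of a gene relative to the TMM-scaled library total. Ybx1 stood at 1021, 528 and 1220 CPM in the 3 WT replicates, in the order of their numbers, and at 83.1, 117 and 147 CPM in those of the cKO. With its intermediate level, the library labelled WT replicate 2 went partly against its label, and the results below were also computed without it. Below, 3 values given for a genotype always follow the order of replicates 1, 2 and 3. Replicate 3 of the cKO stood apart in connective tissue and epidermis genes. Its 7 meninges markers summed to 518 CPM against 8.36 to 17.0 in the other libraries and its 6 epidermis markers summed to 267 CPM against 1.25 to 2.37. The meningeal sum was carried by Col1a1, Col1a2, Col3a1, Dcn and Lum, which other connective tissue also expresses, while the meningeal regulators Foxc1 and Foxd1 were at 1.09 and 0.362 CPM there, within the range of the other libraries. Summed CPM of the other marker lists overlapped between the genotypes, except that 7 interneuron markers lay at 68.6 to 121 in WT and 142 to 150 in cKO.

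The promoters of these genes were examined for letters that members share, since the list was not chosen on sequence. A RefSeq window of 250 bases before to 50 bases after the start site was at hand for 38 of the 46 members and for 13699 genes of the table (GRCm38.p6). The E-box CACGTG, a palindrome bound by MYC with its partner MAX, occurred in 7 of 38 members (18.4%) and in 10.5% of all genes with a window. The ETS-type motif CCGGAAG occurred in 12 members (31.6%, all genes 16.0%) and the GC box GGGCGG in 29 members (76.3%, all genes 61.0%). The CCAAT box, whose reverse complement ATTGG is the core of the Y-box from which the Ybx family takes its name, occurred in 12 members (31.6%, all genes 42.5%). Both strands were searched, and matches of different motifs may share bases. The 7 E-box stretches are shown because MYC control is the best known common feature of this class of genes. Each is written 5′ to 3′ on the strand of the gene with the E-box in capitals.
Nop2: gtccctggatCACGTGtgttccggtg
Utp4: cgcaagcgcgCACGTGgggccggggc
Pes1: ctaggcagggCACGTGcgggaggaag
Wdr43: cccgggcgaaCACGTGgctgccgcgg
Ltv1: cctgtggaccCACGTGtggagctgcc
Mybbp1a: cttctgagccCACGTGtttg
Utp20: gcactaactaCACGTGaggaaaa

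In GRCm38.p6 these stretches lie at chr6:125131813-125131838 for Nop2, chr8:106893645-106893670 for Utp4, chr11:3963967-3963992 for Pes1, chr17:71616222-71616247 for Wdr43 and chr11:72441357-72441376 for Mybbp1a, all on the plus strand. The stretch of Ltv1 lies at chr10:13193094-13193119 and that of Utp20 at chr10:88826765-88826787, both on the minus strand. The E-box of Nop2 starts 60 bases before the start site, and the other 6 start between 2 and 40 bases after it, in the transcribed part of the gene. The 7 genes serve in 5 of the 8 roles: Nop2, an rRNA cytosine methyltransferase, and Pes1 act on the 60S subunit, Utp4 and Wdr43 belong to UTP-A, Utp20 to the processome, Ltv1 to late 40S assembly, and Mybbp1a is a nucleolar MYB-binding protein. A match is a description of the letters and not evidence of binding.

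None of the 46 transcripts was called between the genotypes. With the quasi-likelihood test of edgeR and p-values adjusted by Benjamini-Hochberg over all 13340 genes, 0 members were higher and 0 lower in cKO at an adjusted p under 0.05, where the share of all genes called was 0% in either direction. DESeq2, limma-voom and limma on log2(TPM + 1) also called 0 members, where DESeq2 called 4 of all 13340 genes (0.03%) and limma, in both forms, 0. At an unadjusted p under 0.05, 1 member was higher (all genes 1.75%) and 0 were lower (all genes 1.81%). The libraries of the 2 genotypes did not overlap for 1 member that was higher in cKO (all genes 4.21%) and for 2 that were lower (all genes 4.83%). These 3 members, Sbds, Nop9 and Nob1, are described with their roles below. The deleted gene itself had a log2 fold change of -3.00 (SE 0.33) but an adjusted p of 0.128 in this test, and without the library labelled WT replicate 2 it had -3.28 with an adjusted p of 0.0206.

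The differences were small as well as uncalled. The median log2 fold change (cKO over WT) of the 46 was 0.01, with 27 above 0 and 19 below, against a median of 0.002 over all genes tested, of which 49.2% were below 0. The members ran from -0.12 (Heatr1 and Nop9) to 0.27 (Sbds). Of the 46, 37 (80.4%) lay within 0.1 of 0, compared with 59.9% of all tested genes and with 73.2% of the 7472 genes whose mean TPM fell within the range of the members. No member lay beyond 0.3, as 1220 of all tested genes (9.15%) and 75 of those in the same range of levels did.

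The size of change that these data leave room for was read from the approximate 95% interval of each fold change. The interval covered 0 for 45 of 46 members, the exception being Sbds. All 46 intervals lay between -0.5 and 0.5 on the log2 scale, that is, between 0.767-fold at the lower bound of Heatr1 and 1.41-fold at the upper bound of Sbds. The median interval reached 0.19 to either side. In bulk tissue, fewer cells of a type and less RNA per cell cannot be told apart. The levels are relative to the TMM-scaled counts of each cortical library. The study purified mRNA before making libraries, so the amounts of ribosomal RNA and of total RNA were not measured.

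**Figure D1:**
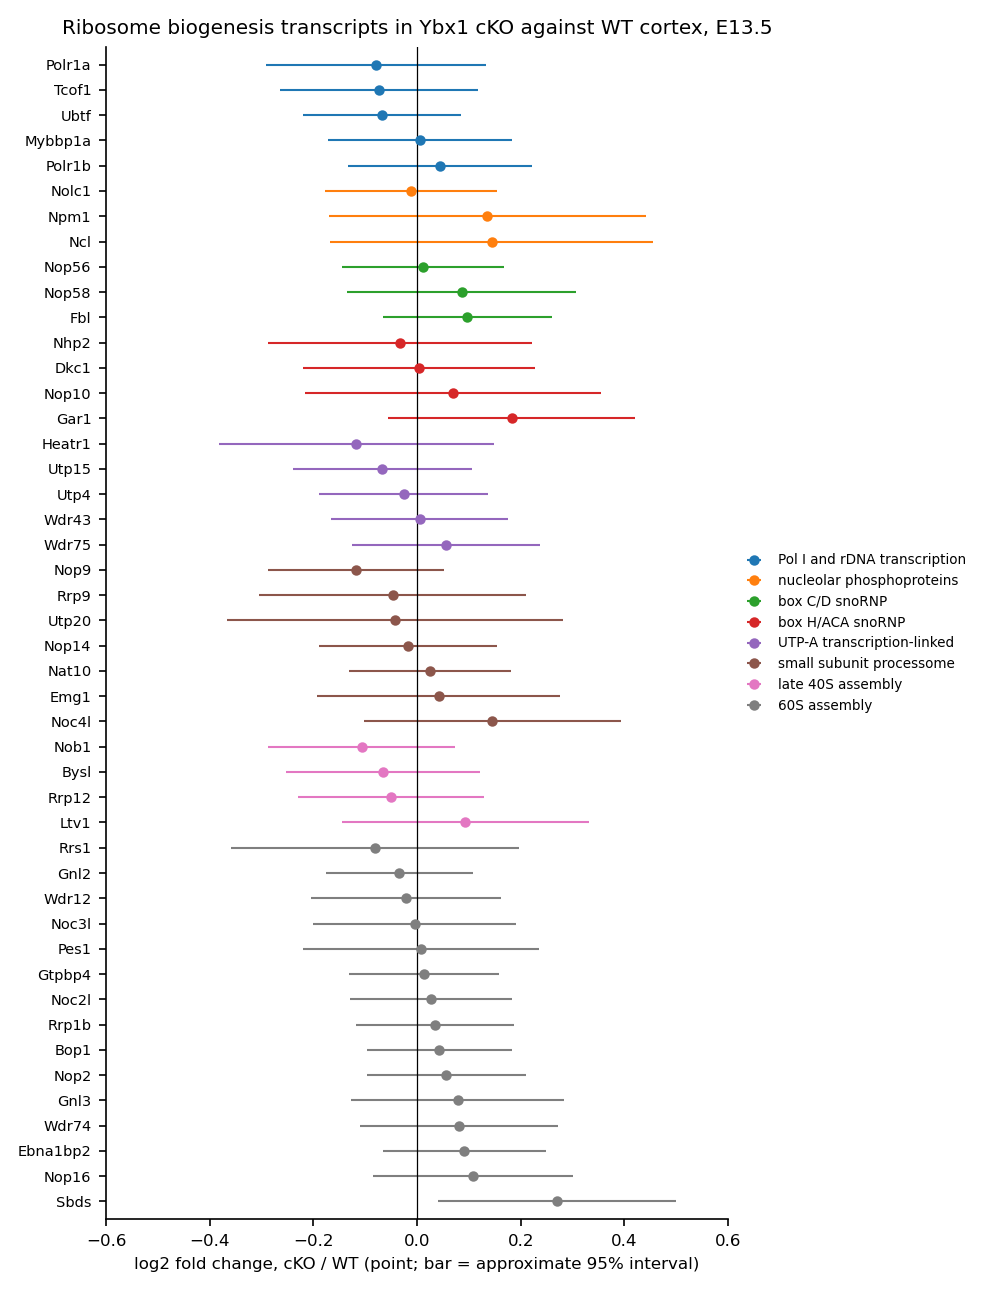
Log2 fold change (cKO over WT) of each of the 46 transcripts on the horizontal axis, with points for the estimate and bars for the approximate 95% interval, ordered and coloured by role (n = 3 libraries per genotype). All bars cross 0 except that of Sbds at the bottom, and no point lies beyond 0.3.

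**Figure D2:**
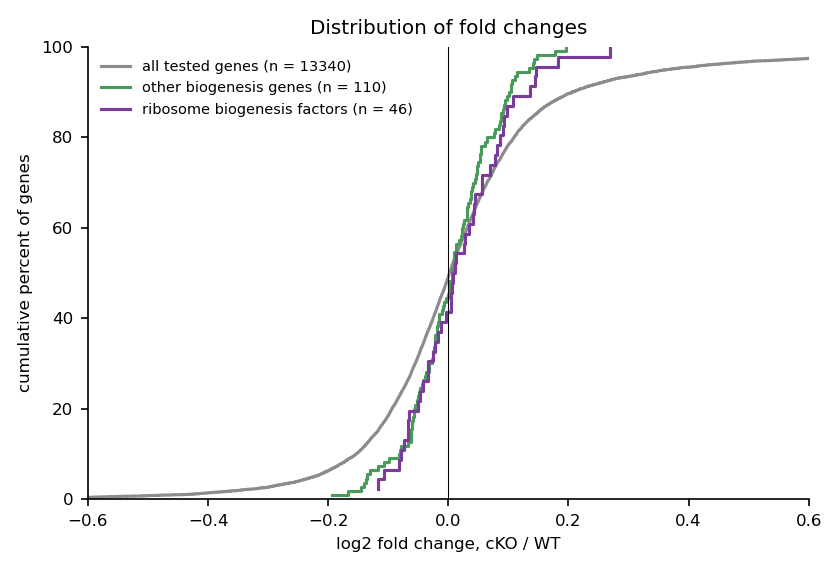
Cumulative percent of genes (vertical axis) against log2 fold change, cKO over WT (horizontal axis, drawn from -0.6 to 0.6), for all 13340 tested genes, 110 other ribosome biogenesis genes and the 46 factors. The curves cross 0 near their middle, and both biogenesis curves are steeper than that of all genes.

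Transcription of ribosomal DNA is carried out by RNA polymerase I, of which Polr1a encodes the largest subunit and Polr1b the second largest. Polr1a had 76.2, 84.1 and 85.2 CPM in WT and 69.0, 85.3 and 78.1 CPM in cKO. The lowest value was in replicate 1 of each genotype, the highest was in cKO replicate 2, and the log2 fold change was -0.08 (SE 0.09). Polr1b lay at 48.2 to 50.9 CPM in WT and 47.1 to 53.8 CPM in cKO, with a log2 fold change of 0.05. Ubtf, which bends and opens the ribosomal DNA promoter for polymerase I, had 248, 243 and 245 CPM in WT and 234, 245 and 224 CPM in cKO, so that only cKO replicate 2 reached the WT range (log2 fold change -0.07, SE 0.07). Tcof1, the nucleolar protein treacle whose loss of function underlies Treacher Collins syndrome, had 113, 102 and 107 CPM in WT and 100, 112 and 93.9 CPM in cKO (log2 fold change -0.07). Its groups overlapped. The median of the 5 genes of this role was -0.07, and 3 of 5 lay below 0.

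Of the nucleolar phosphoproteins, Ncl and Npm1 varied widely among libraries and Nolc1 little. Ncl encodes nucleolin, which binds the ribosomal RNA precursor, and had 575, 794 and 683 CPM in WT and 659, 798 and 809 CPM in cKO. Npm1 encodes nucleophosmin, a chaperone of the granular component of the nucleolus, and had 596, 838 and 762 CPM in WT and 733, 857 and 824 CPM in cKO. In both genes replicate 1 was the lowest library of its genotype and WT replicate 1 the lowest of all 6, and the genotypes overlapped. The log2 fold change was 0.14 for Ncl (SE 0.14) and 0.14 for Npm1 (SE 0.13). Both values depended on single libraries. Without WT replicate 1 they were 0.04 and 0.01, and without the library labelled WT replicate 2 they were 0.26 and 0.24. Nolc1, a phosphoprotein that shuttles between nucleolus and Cajal bodies, lay at 158 to 174 CPM in WT and 155 to 171 CPM in cKO, with a log2 fold change of -0.01.

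The snoRNP proteins covered both kinds of RNA-guided modification. Fbl encodes fibrillarin, the methyltransferase of box C/D snoRNPs, and had 104, 108 and 107 CPM in WT and 106, 122 and 112 CPM in cKO (log2 fold change 0.10, SE 0.07). Its cKO replicate 1 lay within the WT range and the other 2 above it. The core proteins Nop56 and Nop58 lay at 198 to 211 and 104 to 129 CPM in WT and at 198 to 215 and 116 to 133 CPM in cKO, with log2 fold changes of 0.01 and 0.09. All 3 box C/D proteins were thus on the positive side of 0 with overlapping groups and none called.

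Of the box H/ACA proteins, Dkc1 (dyskerin) is the pseudouridine synthase, and its 3 partners Nhp2, Gar1 and Nop10 complete the core, which also serves telomerase RNA. Dkc1, on the X chromosome, had 74.4, 90.3 and 84.9 CPM in WT and 76.1, 91.4 and 82.8 CPM in cKO. Its groups overlapped, and the log2 fold change was 0.004 (SE 0.10). Gar1 had 19.4, 17.97 and 18.4 CPM in WT and 21.7, 23.0 and 18.8 CPM in cKO. Its cKO replicates 1 and 2 lay above all WT libraries and cKO replicate 3 within their range (log2 fold change 0.18, SE 0.10). Without cKO replicate 3, the library with high collagen and keratin counts, Gar1 stood at 0.26 with an unadjusted p of 0.0434 and an adjusted p of 0.9998. Nhp2 lay at 34.6 to 38.6 CPM in WT and 31.0 to 39.8 CPM in cKO, and Nop10 at 32.0 to 42.6 CPM and 36.3 to 43.8 CPM, with log2 fold changes of -0.03 and 0.07.

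The small subunit processome begins with UTP-A, which joins the precursor while it is still being transcribed. Heatr1, its largest subunit, had 86.0, 108 and 99.4 CPM in WT and 79.2, 102 and 89.3 CPM in cKO, with replicate 1 lowest in each genotype (log2 fold change -0.12, SE 0.11). Its value ranged from -0.22 without cKO replicate 2 to -0.03 without cKO replicate 1. Utp4, another UTP-A subunit, lay at 40.2 to 41.6 CPM in WT and 39.1 to 41.1 CPM in cKO, and its 6 libraries spanned only 1.06-fold, the smallest range among the 46. Nat10, which acetylates cytosines of 18S ribosomal RNA, lay at 63.3 to 68.9 and 64.0 to 69.7 CPM (log2 fold change 0.03). Noc4l had 35.4, 37.1 and 44.0 CPM in WT and 41.1, 46.9 and 40.8 CPM in cKO (log2 fold change 0.15, SE 0.11). Its WT replicate 3 lay above 2 of the 3 cKO libraries.

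Nop9, an RNA-binding protein with PUF-type repeats that acts on the 18S precursor, was 1 of the 2 members whose cKO libraries all lay below the WT libraries. It had 50.9, 48.8 and 52.7 CPM in WT and 44.3, 48.6 and 47.7 CPM in cKO, and the gap between the nearest libraries, WT replicate 2 and cKO replicate 2, was small. The log2 fold change was -0.12 (SE 0.07). The gene lies at chr14:55745693-55755634, and 1136 bases of its annotated exons overlap exons of Cideb on the opposite strand. Whether the counting used strand is not given in the sources used here, so reads of the pair may not be separable. Exons of 19 of the 46 members overlap a protein-coding or long noncoding gene on the opposite strand, and those of Gtpbp4 overlap a pseudogene there.

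Late 40S assembly ends in the cytoplasm, where Nob1, an endonuclease, makes the final cut that frees the 18S ribosomal RNA. Nob1 (chr8:107412489-107425038) had 33.7, 34.0 and 36.4 CPM in WT and 31.5, 31.9 and 33.3 CPM in cKO. The highest cKO value was just under the lowest WT value (log2 fold change -0.11, SE 0.08). Bysl, a factor that couples early and late steps of the 40S subunit, lay at 43.1 to 47.1 CPM in WT and 41.4 to 46.7 CPM in cKO (log2 fold change -0.07). In this role 3 of 4 genes lay below 0 and the median was -0.06.

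Assembly of the 60S subunit was represented by 15 genes, of which 11 lay above 0 and 4 below, with a median log2 fold change of 0.04. Bop1, Pes1 and Wdr12 encode the 3 subunits of the PeBoW complex, which is needed for processing of the 28S and 5.8S ribosomal RNAs. Bop1 lay at 63.8 to 66.9 CPM in WT and 65.8 to 69.2 CPM in cKO, Pes1 at 91.7 to 98.5 and 81.9 to 104 CPM, and Wdr12 at 46.04 to 53.0 and 47.2 to 50.9 CPM. Their log2 fold changes were 0.04, 0.01 and -0.02. Gnl3, the nucleolar GTPase nucleostemin known from neural stem cells, lay at 46.5 to 56.0 CPM in WT and 51.5 to 53.8 CPM in cKO (log2 fold change 0.08). Rrs1 had 37.1, 39.0 and 38.4 CPM in WT and 37.2, 41.2 and 29.8 CPM in cKO, so its log2 fold change of -0.08 rested on cKO replicate 3 and was 0.04 without that library.

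Sbds was the member furthest from 0. It encodes the protein mutated in Shwachman-Diamond syndrome, which helps to release the factor eIF6 from new 60S subunits in the cytoplasm. Sbds (chr5:130245732-130255530) had 28.3, 34.9 and 30.4 CPM in WT and 35.8, 37.6 and 39.5 CPM in cKO. The lowest cKO library stood above the highest WT library, which was the one labelled WT replicate 2. The log2 fold change was 0.27 (SE 0.10, 95% interval 0.04 to 0.50), with an unadjusted p of 0.0267 and an adjusted p of 0.99995. Without WT replicate 2 and cKO replicate 3 the log2 fold change was 0.32 with an unadjusted p of 0.0322, and its sign was positive in all 16 alternatives, with 12 of them giving an unadjusted p under 0.05. The other 4 left out WT replicate 1, WT replicate 3, cKO replicate 2 or cKO replicate 3. An exact permutation test of 3 against 3 libraries cannot give a p below 0.1.

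**Figure D3:**
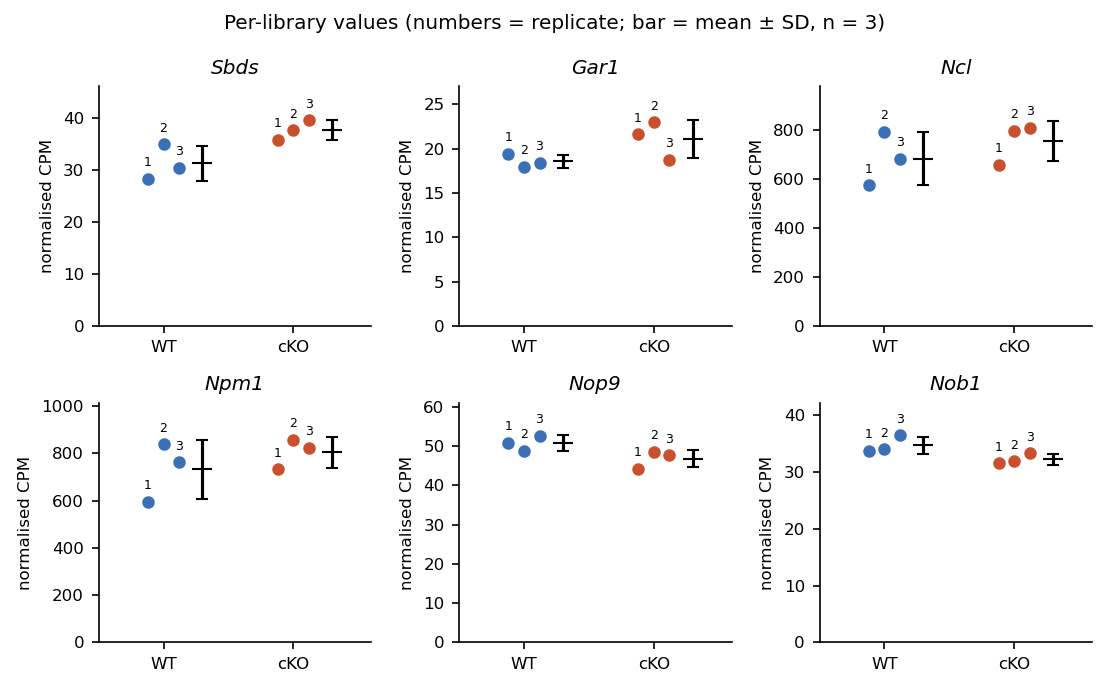
Normalised CPM (vertical axis, from 0) of 6 members in each library, with WT in blue and cKO in red, points numbered by replicate, and bars for the mean and SD (n = 3). The genotypes do not overlap for Sbds, Nop9 and Nob1 and overlap for Gar1, Ncl and Npm1, where WT replicate 1 is the lowest library for Ncl and Npm1.

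The 7 genes with an E-box near their start site, printed above, were spread over the middle of the list. Their log2 fold changes lay between -0.04 (Utp20) and 0.09 (Ltv1), with Utp4 at -0.03, Mybbp1a at 0.005, Pes1 and Wdr43 at 0.01 each and Nop2 at 0.06. Mycn, the MYC gene known to act in neural progenitors, had 157, 152 and 158 CPM in WT and 159, 162 and 141 CPM in cKO (log2 fold change -0.01, SE 0.07). Myc had 20.9, 14.0 and 18.5 CPM in WT and 17.4, 17.3 and 13.9 CPM in cKO (log2 fold change -0.13, SE 0.16). Neither passed the test, and the genotypes overlapped for both.

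Levels between genes were compared as TPM, which is scaled for transcript length. The 46 transcripts ran from 20.0 ± 2.09 TPM (Utp20, SD over all 6 libraries) to 1460 ± 145 TPM (Npm1), with a median of 51.5 TPM. Next after Npm1 came Fbl at 261 ± 11.9, Nop56 at 256 ± 7.65 and Ncl at 255 ± 28.5 TPM, which were not separated beyond their spread. These were followed by Emg1 at 177 ± 10.8, Nop10 at 175 ± 14.6, Ubtf at 152 ± 6.02 and Nop58 at 150 ± 8.63 TPM. Even the least abundant member exceeded 43.4% of the tested genes. Of the 4 most abundant, 2 thus encode nucleolar phosphoproteins and 2 box C/D proteins, while the genes of the very long proteins Heatr1 (30.3 ± 2.498 TPM) and Utp20 lay in the lower part of the order.

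**Figure D4:**
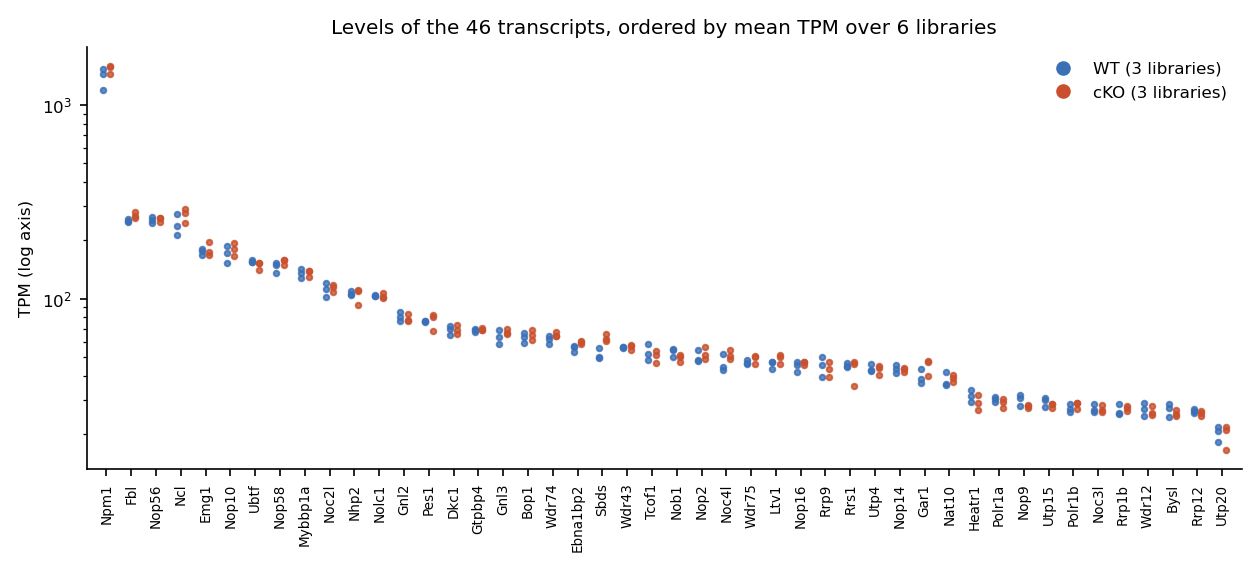
TPM (vertical axis, log scale) of each of the 46 transcripts in the 3 WT libraries (blue) and 3 cKO libraries (red), ordered by the mean over 6 libraries. Npm1 stands apart at 1460 TPM, and the genotypes lie side by side along the whole range down to Utp20 at 20.0 TPM.

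The members also varied from library to library within a genotype. The summed CPM of the 46 was 4375, 5029 and 4771 in WT and 4557, 5156 and 4923 in cKO. Replicate 1 was the lowest and replicate 2 the highest in both genotypes. Ncl and Npm1, the members with the highest CPM, weighed most in this sum. Over the members, the median log2 deviation from the mean of the 6 libraries was -0.06, 0.05 and 0.01 in the WT libraries and -0.06, 0.10 and 0.004 in the cKO libraries. Not every role was low in replicate 1. In cKO replicate 1 the median of 60S assembly was 0.02, with 11 of its 15 genes above the mean. In WT replicate 1 the median was 0.003 for the other small subunit processome factors and -0.004 for transcription of ribosomal DNA. WT replicate 1 and cKO replicate 1 were the 2 lowest libraries for 16 of 46 members (34.8%), for 37.3% of 110 other biogenesis genes and for 20.0% of all genes. The highest library was cKO replicate 2 for 25 members and WT replicate 2 for 11, while each of the remaining libraries was highest for 2 or 3.

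Summed CPM of radial glia and proliferation markers was lower, and that of intermediate progenitor and neuron markers higher, in the same pair of replicate 1 libraries. Not every marker followed its sum. The radial glia markers Sox2 and Hes5, the intermediate progenitor markers Btg2, Neurog2 and Insm1 and the neuron marker Stmn2 did not separate both replicate 1 libraries from the others. The 8 radial glia markers summed to 1809 and 1772 CPM in WT replicate 1 and cKO replicate 1 and to between 2372 and 2629 CPM in the other 4 libraries. The 8 proliferation markers summed to 2504 and 2143 CPM in the replicate 1 libraries and to between 2970 and 3453 CPM in the others. The 6 intermediate progenitor markers were at 1525 and 1417 CPM in the replicate 1 libraries and between 1168 and 1360 CPM in the others. Neuron markers were at 5882 and 6080 CPM in the replicate 1 libraries and between 4840 and 5523 CPM in the others. The 6 genes listed as MYC family (Myc, Mycn, Mycl, Max, Mxi1 and Mnt) summed to 533 and 552 CPM there against 469 to 510 CPM. Of these, Mycl, Mxi1 and Mnt were higher in both replicate 1 libraries than in all others, while Myc, Mycn and Max were not. Mycn stood at 157 and 159 CPM there against 141 to 162 CPM. The part of cell composition in the values of the 46 members was not tested. With both replicate 1 libraries left out, the median log2 fold change of the members was 0.03, and without WT replicate 2 and cKO replicate 3 it was 0.05.

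The spread within a genotype was small for these transcripts. Their median coefficient of variation within a genotype was 5.71%, against 9.92% for all tested genes and 7.59% for tested genes in the same range of TPM. The fold range over the 6 libraries had a median of 1.18 for the members, from 1.06 (Utp4) to 1.44 (Npm1), and of 1.296 for all tested genes. The median absolute log2 fold change was 0.06 for the members and 0.06 for tested genes in their range of TPM, against 0.08 for all tested genes.

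**Figure D5:**
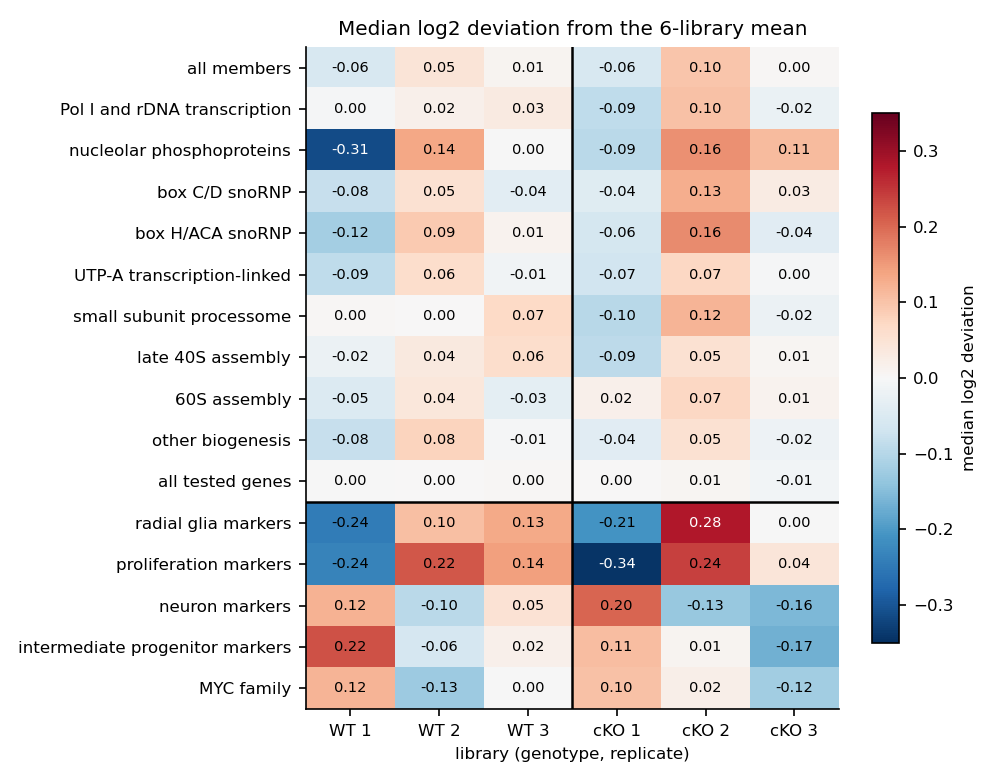
Median log2 deviation from the mean of the 6 libraries for all 46 members, each role, 110 other biogenesis genes and all tested genes (upper block) and for marker lists (lower block), with libraries as columns. The replicate 1 columns are blue and the replicate 2 columns red for the members as a whole in both genotypes, and the radial glia and proliferation markers have their lowest values in the replicate 1 columns.

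The rest of the pathway was read from a list of 110 other ribosome biogenesis genes, all of which were tested. By the same test 0 were higher and 0 lower at an adjusted p under 0.05, and 1 was higher (all genes 1.75%) and 1 lower (all genes 1.81%) at an unadjusted p under 0.05. Their median log2 fold change was 0.01, with 60 above 0 and 50 below, and their groups did not overlap for 1 gene that was higher (all genes 4.21%) and 5 that were lower in cKO (all genes 4.83%). Nop53, a 60S factor that recruits the RNA exosome, had 119, 119 and 120 CPM in WT and 101.03, 107 and 105 CPM in cKO (log2 fold change -0.19, SE 0.06), with an unadjusted p of 0.0107 and an adjusted p of 0.99995. Eif6, which keeps new 60S subunits from joining 40S subunits until it is released, had 47.6, 47.1 and 47.6 CPM in WT and 51.5, 56.6 and 52.8 CPM in cKO (log2 fold change 0.18, SE 0.07), with an unadjusted p of 0.0338 and an adjusted p of 0.99995. In both genes the cKO libraries lay wholly to one side of the WT libraries. The next smallest p-values belonged to Nol9, Imp3 and Rrp7a, with log2 fold changes of -0.14, -0.17 and -0.14.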

How the data were processed

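Cortical RNA from 3 WT and 3 cKO embryonic samples was analysed from 1 table of 17348 genes. Raw estimated counts, of which 10.9% had a decimal part, were deposited there by the authors. The same table holds TPM and FPKM values deposited by the authors, both scaled for length and depth, and 6 columns of the authors' group averages. The FPKM and average columns were not used. The submitters' processing notes name HISAT2 2.2.1, Bowtie2 2.4.5 and RSEM 1.3.1 with GRCm38 (mm10), and the use of strand is not given in the sources used here. Genotype and replicate were taken from sample titles. The members and gene lists were chosen with earlier results of these data known.

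Counts were rounded, filtered with filterByExpr (minimum count 10, minimum total count 15) and scaled by TMM (factors 0.987 to 1.03). Genotype was tested with edgeR's quasi-likelihood test (edgeR 4.0.16, R 4.3.3; common dispersion 0.0169, prior degrees of freedom 3.92) and Benjamini-Hochberg adjustment over 13340 genes, with a threshold of 0.05. The SE is the log2 fold change divided by the square root of F, and intervals are approximate. The procedure was tested on simulated data. A member was named if it was among 24 fixed examples of the roles, had an unadjusted p under 0.05, had groups without overlap, or was among the 5 highest or 5 lowest fold changes. Of other genes, Ybx1, Mycn, Myc and the 5 biogenesis genes with the smallest p were named. Any other gene named was picked with its values known. The 15 alternatives planned were upper-quartile and RLE factors, no filter, a minimum of 10 counts in all libraries, limma-voom and limma on log2(TPM + 1) (limma 3.58.1), DESeq2 1.42.0, the replicate number as a block, each library left out in turn, and WT replicate 2 and cKO replicate 3 left out together. Leaving out WT replicate 1 and cKO replicate 1 together was added after the data were seen. The series description speaks of 3 sequencing batches without saying which libraries each holds. Coordinates and promoter windows are from RefSeq (GRCm38.p6), and exon overlaps from GENCODE M21. Promoter windows were not used for Sbds, Rrp12, Gnl2, Fbl, Tcof1, Npm1, Rrs1 and Bop1, and the planned count of protein features was not made.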

Additional observations from a re-analysis of the deposited data

How the results depend on the processing

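No member was called at an adjusted p under 0.05 in any of the 16 alternatives, by edgeR, DESeq2 or limma. The replicate block gave 2 members with an unadjusted p under 0.05, Sbds (adjusted p = 0.506) and Ncl (adjusted p = 0.610), where 3.57% of all genes were higher at that level. Leaving out 1 library gave 0 to 1 such members: 0 without WT replicate 1, WT replicate 3 or cKO replicate 2, and Gar1 in place of Sbds without cKO replicate 3. The share of all genes higher at that level ranged over these 6 fits from 0.895% without WT replicate 3 to 4.23% without cKO replicate 1. No member was lower at that level in any alternative, where the share of all genes lower ranged from 0.873% without WT replicate 3 to 4.6% with the replicate block. With 1 library left out, the median of the members ranged from -0.02 to 0.05 and that of other biogenesis genes from -0.02 to 0.04. The log2 fold change of Ybx1 passed the threshold with DESeq2 (-3.00) and with the replicate block (-2.95). It also passed without WT replicate 2 (-3.28), and without WT replicate 2 and cKO replicate 3 together (-3.49). With 1 library left out it ranged from -3.28 to -2.75.

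Signs near 0 turned. With upper-quartile factors Nolc1 was 0.0022, and with no filter Dkc1 was -0.0010. Without WT replicate 2 and cKO replicate 3, Pes1 was -0.021, Wdr12 0.054 and Rrs1 0.054. Without WT replicate 1 and cKO replicate 1, Dkc1 was -0.0023, Nhp2 0.025 and Nop10 -0.0082. With 1 library left out, the sign turned for 21 of 46 members, of which 10 are named by the rule, within these ranges: Polr1a from -0.16 to 0.0051, Nolc1 from -0.046 to 0.039, Nop56 from -0.027 to 0.041, Dkc1 from -0.067 to 0.074, Nhp2 from -0.11 to 0.076, Nop10 from -0.030 to 0.17, Nat10 from -0.0076 to 0.065, Pes1 from -0.054 to 0.12, Wdr12 from -0.067 to 0.030 and Rrs1 from -0.19 to 0.038. The cause was not tested, beyond the change of libraries or factors itself.

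Deviations from the genotype mean were correlated between libraries of the same number. Over all genes the correlations were 0.41, 0.31 and -0.02 for replicates 1, 2 and 3. Over the members they were 0.56, 0.0002 and 0.08. WT replicate 3 and cKO replicate 3 each correlated best with number 2 over all genes, so the numbers were not taken to pair the samples. Depth limits values under 3 counts, or 0.181 to 0.188 CPM, far under all members.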

Other observations

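Sbds, the GTPase Efl1 and Eif6 act in 1 step, the release of eIF6 from new 60S subunits in the cytoplasm. Efl1, chosen after its values were seen, had 23.4, 27.8 and 27.8 CPM in WT and 23.6, 27.2 and 25.4 CPM in cKO, a log2 fold change of -0.05 (SE 0.10) with overlapping groups. Sbds and Eif6 were the only genes, of 46 members and 110 others, that were higher in cKO at an unadjusted p under 0.05 in edgeR's test, with log2 fold changes of 0.27 and 0.18, while 1.75% of all tested genes were higher at that level. With DESeq2, none of the 110 others was. The same held without WT replicate 3, cKO replicate 2 or cKO replicate 3, and without WT replicate 2 and cKO replicate 3 together. The cytoplasmic 60S factors Lsg1 and Nmd3, also chosen after their values were seen, stood at -0.10 (SE 0.10) and 0.05 (SE 0.08). None of these genes passed the adjusted threshold.

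The Y-linked gene Ddx3y was at 55.2, 0 and 0 CPM in WT and at 73.6, 0 and 72.6 CPM in cKO, where 0 counts allow up to 0.188 CPM. The X-linked member Dkc1 was at 74.4, 90.3 and 84.9 CPM and at 76.1, 91.4 and 82.8 CPM in the same libraries. It was lower in the libraries with Ddx3y counts (74.4, 76.1 and 82.8 CPM) than in those without (84.9, 90.3 and 91.4 CPM). Both replicate 1 libraries, which were low for many members and in summed radial glia and proliferation markers, thus held Y-linked RNA. So did cKO replicate 3, where the members summed to 4923, the radial glia markers to 2372 and the proliferation markers to 2970 CPM. Whether the sex of the embryos had a part in the values of the members was not tested.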
